A study of Mus musculus with 24 samples.

Results

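The genes described here encode 5 neuropeptide precursors (Penk, Pdyn, Tac1, Crh and Cartpt), 4 members of the extended granin family (Scg2, Vgf, Chga and Chgb) and the prohormone convertase Pcsk1. They were chosen by symbol, taking for each the probe set with the highest mean among those annotated to that gene alone. All 10 genes were found, each with 1 probe set, and all 10 passed the floor on low values, among 17105 genes tested. Neuropeptides are made as long precursors, packed with granins into dense-core granules, cut by convertases such as the Pcsk1 product and released on sustained firing. In the hippocampus, enkephalin and dynorphin peptides are known from granule cells and their mossy fibres, corticotropin-releasing hormone from interneurons, and the granins from principal neurons. Several of these genes are also strongly expressed in neighbouring regions, Tac1 in the habenula and striatum, Penk in the striatum, and Cartpt in the hypothalamus.

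Hippocampal RNA came from aged female Tg2576 mice, in which the prion promoter drives a human amyloid precursor protein with the Swedish mutation in every group, vehicle included. No array of mice without the transgene was used here, so all values compare treated with untreated transgenic mice. The groups were CM-414 (4 arrays), vorinostat plus tadalafil (the combination, 7 arrays), tadalafil (3 arrays), vorinostat (3 arrays) and vehicle (7 arrays). Tadalafil is a PDE5 inhibitor, vorinostat an HDAC inhibitor and CM-414 a code-named compound whose structure is not considered here. The array titles say vehicle, and part of the paper says saline. Treatment lasted 4 weeks, and the tissue was taken after a further 4 weeks without drug. A second round of water maze training before the tissue was taken is described in the study's methods, which do not mention CM-414. The labels give an age of 16 to 18 months and the strain B6.Cg-Tg(APPswe)E1-2Dbo/J. The study's methods give 14 to 16 months at the start and 3 animals per group. The inbred background named in the methods includes SJL, which the labels do not name. The methods do not name their arrays, so every array was used. The labels call the arrays of a group biological replicas, and p-values measure the spread between them.

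Values are log2 expression after RMA, as the authors deposited them, and a difference of 1 is a doubling. Array medians lay between 5.90 and 5.98, and 84.3 to 85.7% of the probe sets exceeded the floor of 4. The arrays formed 2 sets that the level of the small nucleolar RNA Snord13 separates, at 10.35 to 11.46 in 12 arrays (second set) and 7.27 to 8.46 in 12 others (first set). The second set held 4 CM-414, 4 combination and 4 vehicle arrays, and the first set held 3 combination, 3 tadalafil, 3 vorinostat and 3 vehicle arrays. The first set thus held 3 arrays of each treatment group in the study's methods, which give 3 animals per group and do not mention CM-414. Whether it is the set that the methods describe is not stated. No label explains the sets, and they serve only as a technical split. The main comparisons between groups pool both sets without a term for them.

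The promoters of 7 of the 10 genes were on hand in RefSeq (GRCm38.p6). The study's question of transcription through CREB, the factor that binds the cAMP response element, makes that element the feature to look for. The full element TGACGTCA, which reads the same on both strands, lay in the 250 bases before the start of 4 of these 7 genes, whereas 1.77% of the 27025 genes with such a window hold it. These 4 stretches are shown 5′ to 3′ on the gene's strand with the element in capitals, because a precursor gene (Cartpt), the granin genes Scg2 and Chgb and the convertase gene Pcsk1 have it in common:
Cartpt: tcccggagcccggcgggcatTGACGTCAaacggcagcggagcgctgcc
Scg2: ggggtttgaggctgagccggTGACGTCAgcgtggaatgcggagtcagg
Chgb: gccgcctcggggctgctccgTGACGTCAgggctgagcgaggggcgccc
Pcsk1: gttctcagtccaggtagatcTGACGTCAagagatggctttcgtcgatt
The Cartpt stretch is chr13:99900768-99900815 (minus strand), with the element beginning 112 bases before the start. The Scg2 stretch is chr1:79440067-79440114 (minus strand), 68 bases before. The Chgb stretch is chr2:132781550-132781597 (plus strand), 72 bases before. The Pcsk1 stretch is chr13:75089759-75089806 (plus strand), 78 bases before. The Tac1 and Chga windows held only the shorter core TGACG on either strand (2 matches and 1 match), which 19.8% of all genes hold within 250 bases, and neither Pdyn window held it. These are matches of letters and no measure of binding.

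In 3 arrays, CM-414 3, CM-414 4 and vehicle 3, several members lay outside the range of all the others. Markers of tissue around the hippocampus stood apart in the same 3 arrays, as the map of the 10 genes and the marker lists by array shows. The 12 thalamus markers averaged 9.48 in CM-414 3 and 9.14 in vehicle 3, against 7.23 to 7.99 in the 21 arrays other than these 3, and all 12 markers were above every one of those 21. The mean of 5 CA1 markers was 7.20 in CM-414 3 and 7.45 in vehicle 3, against 8.42 to 8.77 in the 21 arrays. CM-414 3 was also above the 21 arrays in 7 of 7 hypothalamus markers (mean 8.01, against 5.51 to 5.86), in 6 of 7 midbrain markers and in 5 of 6 habenula markers. Vehicle 3 was above the 21 arrays in 3 of 6 habenula markers (mean 6.47, against 5.43 to 5.90). It was also above them in 3 of 7 midbrain markers (mean 6.18, against 5.79 to 6.12). In CM-414 4 the thalamus mean was within the range (7.48), with 1 of 12 markers below it. This array was above the range in 4 of 5 striatum markers (mean 7.57, against 6.72 to 7.04). It was also above in 3 of 7 hypothalamus markers, Avp and Oxt among them, with Pomc below. Of 10 interneuron markers 5 were above and 1 below there, and of 8 neocortex markers 3 were above. The striatum mean of CM-414 3 (7.32) was above the range too, with 2 of 5 markers above. The 8 dentate granule cell markers averaged 6.86 in CM-414 3, 6.85 in CM-414 4 and 6.73 in vehicle 3, against 7.04 to 8.28 in the 21 arrays, with 4, 6 and 5 of them below the range. Prox1, a marker of dentate granule cells, was at 8.04 in CM-414 3, 7.50 in CM-414 4 and 7.67 in vehicle 3, against 7.61 to 9.45 in the 21 arrays. Combination 3 set the low end of the range for Prox1 and for the mean of the dentate granule cell markers. In bulk tissue fewer cells of a type and less RNA per cell cannot be told apart. The part of these tissue markers in the members' values was not tested. Results that rest on these 3 arrays are given with and without them, except where stated.

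**Figure D1:**
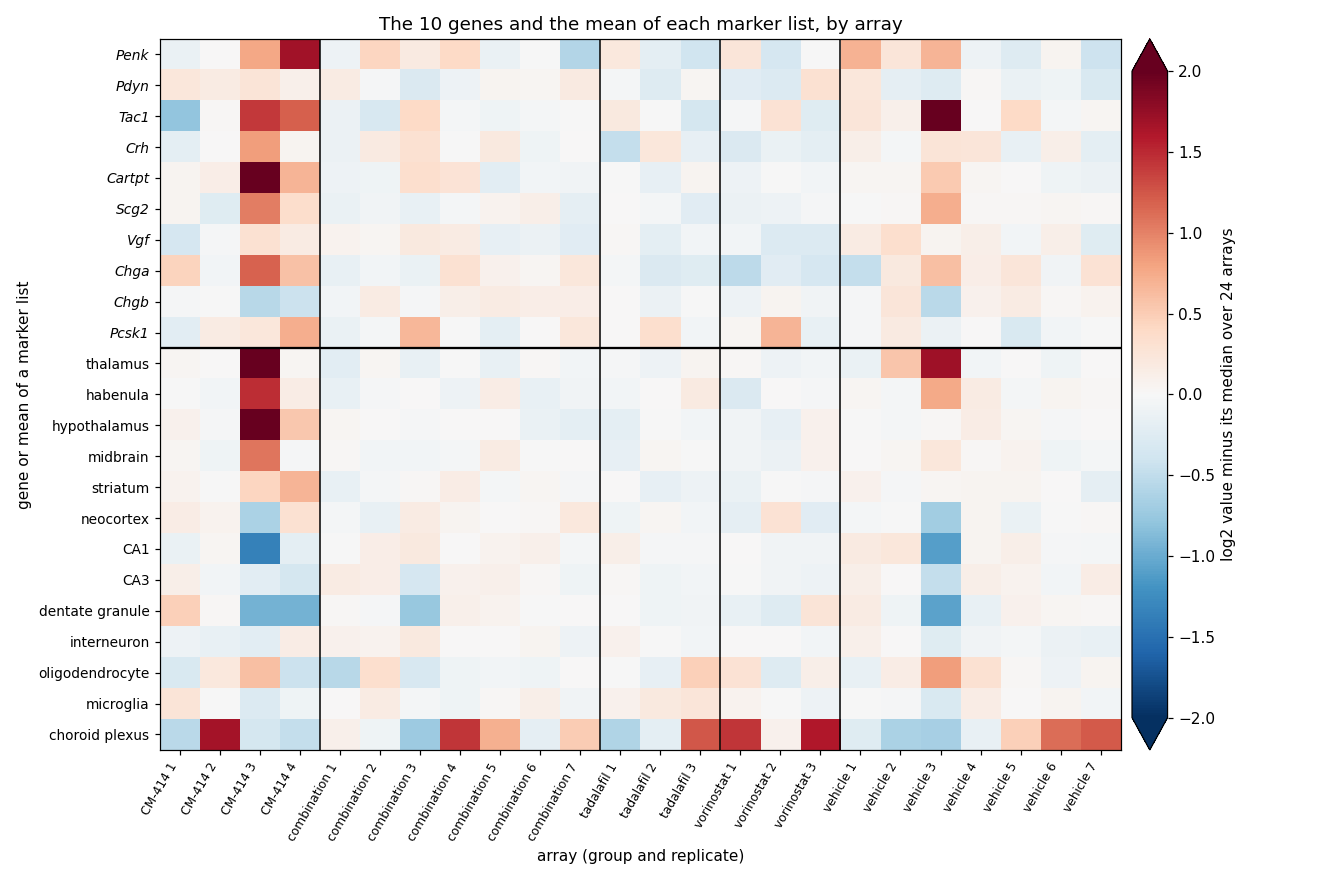
Log2 value of each gene (upper rows) and mean log2 value of each marker list (lower rows) minus its median over the 24 arrays, with arrays in columns by group and replicate and colours limited to a difference of 2 in either direction. CM-414 3 and vehicle 3 carry the highest thalamus means (9.48 and 9.14) and high Tac1, Scg2 and Chga with low Chgb. CM-414 4 has the same 3 genes high and Chgb low, with a thalamus mean of 7.48, within the range of the 21 other arrays.

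Tac1, which encodes substance P and neurokinin A, was the member with the widest spread within groups, with a standard deviation of 0.62, wider than in 99.5% of all genes. It was at 5.29, 6.10, 7.49 and 7.27 in CM-414 arrays 1 to 4, between 5.76 and 6.47 (median 6.03) in the combination, at 6.27, 6.07 and 5.72 with tadalafil, at 6.05, 6.37 and 5.82 with vorinostat, and between 6.04 and 8.20 (median 6.18) with vehicle. Vehicle 3 held the highest of all 24 values, 2.00 above the mean of the other 6 vehicle arrays (4.00-fold), and CM-414 1 held the lowest. Every group overlapped with every other.

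Cartpt, the precursor of the CART peptide of feeding and reward circuits, was at 6.73, 6.80, 9.27 and 7.36 in the CM-414 arrays, between 6.47 and 7.01 (median 6.61) in the combination, at 6.66, 6.51 and 6.72 with tadalafil, at 6.57, 6.66 and 6.61 with vorinostat, and between 6.55 and 7.20 (median 6.71) with vehicle. CM-414 3 was 2.50 above the mean of CM-414 1 and 2 (5.67-fold), and vehicle 3 was the highest of its own group. With the 3 arrays left out, the standard deviation within groups was 0.14, wider than in 48.2% of genes, whereas with all arrays it was 0.50, wider than in 98.7%.

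Penk, the enkephalin precursor, reached its highest value, 10.70, in CM-414 4, against 8.88, 9.03 and 9.78 in CM-414 1, 2 and 3. It lay between 8.43 and 9.45 (median 9.004) in the combination, at 9.23, 8.81 and 8.62 with tadalafil, at 9.25, 8.67 and 9.002 with vorinostat, and between 8.60 and 9.70 (median 9.08) with vehicle. CM-414 4, the array with the highest mean of the striatum markers, was 1.74 above the mean of CM-414 1 and 2 (3.34-fold). Unlike Cartpt, Penk stayed widely spread without the 3 arrays, with a standard deviation of 0.34, wider than in 98.0% of genes. Pdyn, the dynorphin precursor, varied far less, between 6.35 and 6.94 over all 24 arrays, and none of the 3 arrays was outside the range of the others. Crh, the corticotropin-releasing hormone gene, lay between 5.46 and 6.77, with CM-414 3 the highest and tadalafil 1 the lowest.

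Scg2 and Chga shared their high arrays. Scg2, the precursor of secretoneurin, was at 9.77, 9.47, 10.74 and 10.07 in the CM-414 arrays, between 9.53 and 9.83 (median 9.65) in the combination, at 9.73, 9.67 and 9.49 with tadalafil, at 9.60, 9.61 and 9.69 with vorinostat, and between 9.70 and 10.45 (median 9.74) with vehicle. Chga, chromogranin A, was at 9.87, 9.38, 10.61 and 10.01 in the CM-414 arrays, between 9.27 and 9.73 (median 9.47) in the combination, at 9.38, 9.14 and 9.19 with tadalafil, at 8.90, 9.21 and 9.09 with vorinostat, and between 8.95 and 10.03 (median 9.63) with vehicle. Both genes were higher in CM-414 3, CM-414 4 and vehicle 3 than in any of the 21 other arrays.

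Chgb, chromogranin B, ran the other way. It was at 11.35, 11.37, 10.81 and 10.94 in the CM-414 arrays, between 11.31 and 11.53 (median 11.50) in the combination, at 11.37, 11.25 and 11.36 with tadalafil, at 11.27, 11.42 and 11.30 with vorinostat, and between 10.84 and 11.62 (median 11.44) with vehicle. The same 3 arrays were below all 21 others, and vehicle 3 was 0.63 below the mean of the other 6 vehicle arrays. Without them Chgb had a standard deviation within groups of 0.09, wider than in only 8.03% of genes, and Scg2 one of 0.10, wider than in 16.2%. Vgf, a secreted neuronal protein cut into several peptides, lay between 8.35 and 9.02, with none of the 3 arrays outside the other 21. Pcsk1, the convertase that begins the cutting of many precursors, lay between 7.64 and 8.57 in the CM-414 arrays, between 7.65 and 8.51 in the combination, between 7.79 and 8.18 with tadalafil, between 7.70 and 8.53 with vorinostat and between 7.54 and 8.03 with vehicle.

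**Figure D2:**
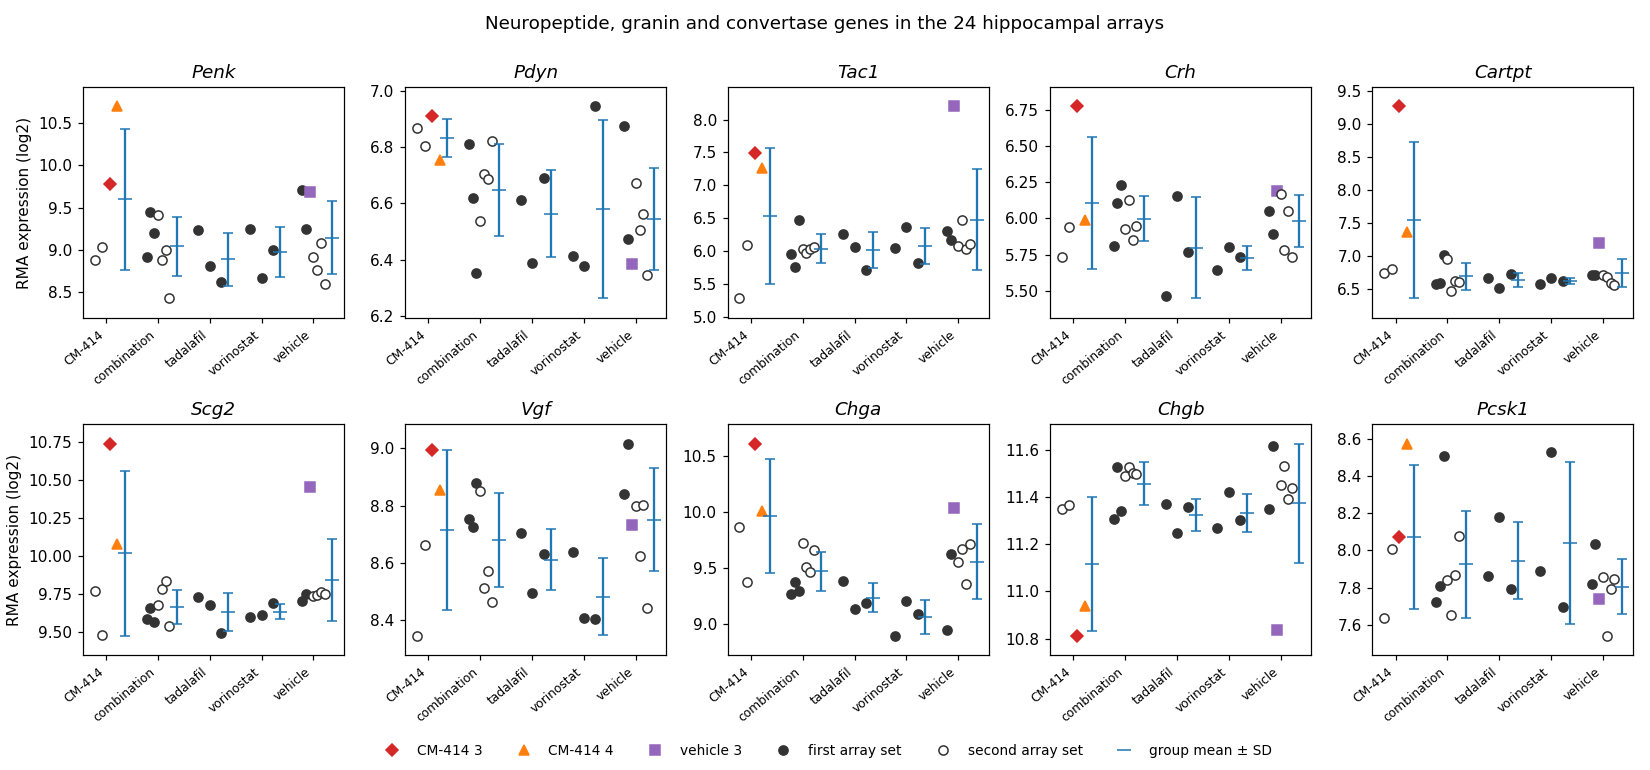
RMA expression (log2) of each gene in each array, by group, with filled circles for the first and open circles for the second array set, the 3 arrays that stand apart as coloured symbols, and blue bars for the group mean ± SD (n = 4, 7, 3, 3 and 7). The coloured symbols lie above the other arrays for Tac1, Cartpt, Scg2 and Chga and below them for Chgb, and the axes do not start at 0.

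Counted over the 10 members, CM-414 3 was above the 21 other arrays in 6 and below in 1, CM-414 4 above in 6 and below in 1, and vehicle 3 above in 4 and below in 1. Over all 17105 genes, 32.9% were outside that range in CM-414 3, 21.3% in CM-414 4 and 30.2% in vehicle 3. Tac1, Cartpt, Scg2, Chga and Chgb were outside it in all 3 arrays. The share of all genes outside it in all 3 was not counted. The members' own values were among those that drew attention to these arrays, so this count describes them and tests nothing.

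The first question was what CM-414 did relative to vehicle. No member passed the adjusted p of 0.05 in limma's moderated test with Benjamini-Hochberg adjustment, where 0.00585% of all genes did, and 4 of 10 had an unadjusted p under 0.05, against 12.6% of all genes. Cartpt averaged 7.54 ± 1.19 with CM-414 (SD, n = 4) and 6.74 ± 0.22 with vehicle (n = 7), a difference of 0.80 (SE 0.29, limma adjusted p = 0.232). Chga averaged 9.97 ± 0.51 with CM-414 and 9.56 ± 0.34 with vehicle, a difference of 0.41 (SE 0.17, limma adjusted p = 0.322). For Chgb the means were 11.12 ± 0.28 with CM-414 and 11.37 ± 0.25 with vehicle, a difference of -0.26 (SE 0.12, limma adjusted p = 0.350). Pdyn averaged 6.83 ± 0.07 with CM-414 and 6.55 ± 0.18 with vehicle, a difference of 0.29 (SE 0.11, limma adjusted p = 0.261). The median difference over the 10 members was 0.22, and that over all genes was -0.01.

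Without CM-414 3, CM-414 4 and vehicle 3, which left 2 CM-414 arrays, the difference was 0.11 for Cartpt, 0.14 for Chga and -0.10 for Chgb, and that of Penk was -0.10 in place of 0.45. The median over the 10 members was then -0.10, with 4 higher and 6 lower, so its sign turned. Pdyn kept a difference of 0.26 (95% interval -0.04 to 0.56). Tac1, whose difference with all arrays was 0.05 (95% interval -0.68 to 0.78), then stood at -0.50 (95% interval -0.90 to -0.11, limma adjusted p = 0.527), with CM-414 1 holding the lowest value of all 24 arrays. Within the second array set alone, Cartpt differed by 0.91, Penk by 0.76, Chga by 0.39, Chgb by -0.34 and Pdyn by 0.31, none past the adjusted threshold. No member was above or below vehicle in every CM-414 array, where 1.18% of all genes did not overlap.

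**Figure D3:**
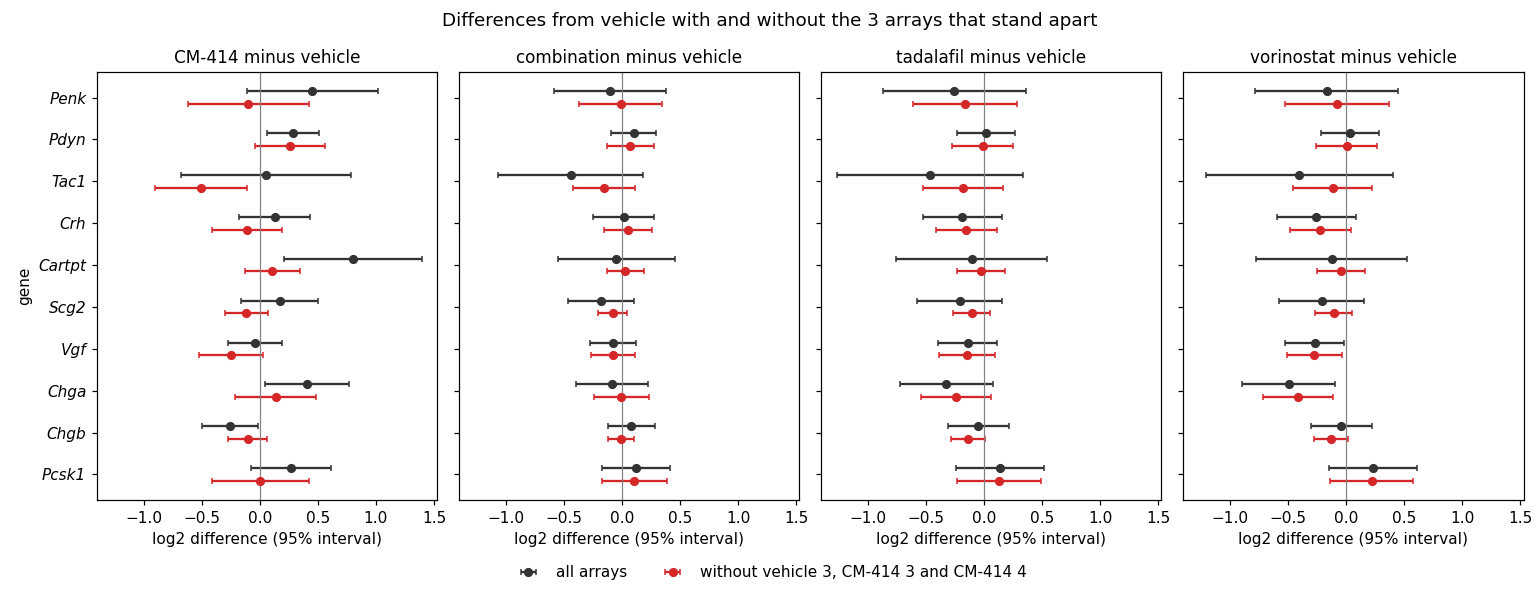
Log2 difference of each treated group from vehicle with its 95% interval, for all arrays (black) and without vehicle 3, CM-414 3 and CM-414 4 (red). In the CM-414 panel the difference with and without these arrays is 0.80 and 0.11 for Cartpt, 0.45 and -0.10 for Penk, and 0.29 and 0.26 for Pdyn.

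The second question was what vorinostat and tadalafil did when given together. None of the 10 members passed limma's adjusted threshold against vehicle, nor did any gene (0%), and none had an unadjusted p under 0.05, where 4.04% of genes did. The member differences ran from -0.44 for Tac1 (SE 0.30, 95% interval -1.06 to 0.18) to 0.12 for Pcsk1 (SE 0.14, 95% interval -0.17 to 0.41), with a median of -0.06 (-0.01 without vehicle 3). Tac1 averaged 6.04 ± 0.21 in the combination and 6.48 ± 0.77 with vehicle (SD, n = 7 each), and without vehicle 3 its difference was -0.16. Chgb differed by 0.08 with an interval of -0.12 to 0.29. In the first array set the difference for Scg2 was -0.37 and in the second -0.04, and vehicle 3 belongs to the first. The difference between the sets in the effect of the combination passed the adjusted test for no gene (1031 had an unadjusted p under 0.05), and for the members it was largest for Tac1 at 0.69 (SE 0.50). No member separated the combination from vehicle array by array, as 0.076% of all genes did.

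With vorinostat alone, Chga and Vgf had the lowest p of the members. Chga averaged 9.07 ± 0.16 with vorinostat (SD, n = 3) and 9.56 ± 0.34 with vehicle (n = 7), a difference of -0.49 (SE 0.19, 95% interval -0.89 to -0.10, limma adjusted p = 0.464). Vgf was at 8.64, 8.41 and 8.40 with vorinostat and between 8.44 and 9.02 (median 8.80) with vehicle, a difference of -0.27 (SE 0.12, 95% interval -0.52 to -0.01, limma adjusted p = 0.549). Thus 2 of 10 members had an unadjusted p under 0.05, against 8.76% of all genes, and no member passed the adjusted threshold, which 0.00585% of genes passed. Without vehicle 3 the differences were -0.41 for Chga and -0.27 for Vgf. The Chga difference was -0.23 (SE 0.15) with the set as a block and without vehicle 3 and CM-414 3, and that of Vgf was then -0.42 (SE 0.12, limma adjusted p = 0.323). Scg2 was the only member whose vorinostat arrays (9.60 to 9.69) all lay below the vehicle arrays (9.70 to 10.45), where 3.48% of all genes did not overlap. Its difference was -0.21 with all arrays and -0.11 without vehicle 3. The means of 8 members were lower with vorinostat, with a median difference of -0.19 (-0.11 without vehicle 3), against a median of -0.01 over all genes.

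Tadalafil gave no member an unadjusted p under 0.05 (5.33% of genes) or an adjusted one (0% of genes). The median member difference was -0.16, and the extremes were Tac1 at -0.46 (SE 0.39, 95% interval -1.27 to 0.34) and Pcsk1 at 0.14 (SE 0.18, 95% interval -0.24 to 0.52). Without vehicle 3 the difference for Tac1 was -0.18 and the median was -0.14. Chga averaged 9.24 ± 0.13 with tadalafil and 9.56 ± 0.34 with vehicle, a difference of -0.32 (SE 0.19, limma adjusted p = 0.939). Penk was at 9.23, 8.81 and 8.62 with tadalafil, against 9.70, 9.25 and 9.69 in the 3 vehicle arrays of the same array set, a difference within that set of -0.66 (SE 0.20, limma adjusted p = 0.844). In that set the mean of Penk was also lower with vorinostat (8.98) and in the combination (9.19) than with vehicle (9.55). Against all 7 vehicle arrays the tadalafil difference for Penk was -0.25 (SE 0.30). The tadalafil arrays did not separate from vehicle for any member, where 2.15% of all genes did.

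Set against the single drugs, Chga was the member with the lowest p. The combination minus vorinostat was 0.41 for Chga (SE 0.19, limma adjusted p = 0.585), with 9.48 ± 0.17 in the combination (n = 7) and 9.07 ± 0.16 with vorinostat (n = 3). That was the only member with an unadjusted p under 0.05, against 8.41% of genes, and 0% of genes passed the adjusted threshold. Within the first array set this difference was 0.25. Against tadalafil, no member had an unadjusted p under 0.05 (4.17% of genes; adjusted, 0%), and the differences ran from -0.02 for Pcsk1 to 0.24 for Chga (95% interval -0.16 to 0.63).

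A further contrast asked whether giving both drugs did more or less than adding up what each did alone. For Chga it exceeded that sum by 0.73 (SE 0.27, 95% interval 0.17 to 1.29, limma adjusted p = 0.366), the only member among the 10.2% of genes with an unadjusted p under 0.05, while 0.0175% of genes and no member passed the adjusted threshold. With array weights, which let noisy arrays count for less, the Chga value was 0.78 and passed (limma adjusted p = 0.0488), as did 1.46% of all genes. Crh exceeded the sum by 0.46 (SE 0.23) and Vgf by 0.34 (SE 0.17). Within the first array set, which alone holds both single drugs, the values were 0.55 for Chga, 0.57 for Crh, 0.56 for Vgf and 0.87 for Penk, with limma adjusted p of 0.808 for Chga and 0.772 for the other three. The same vehicle arrays enter this contrast, with a plus sign, and every comparison with vehicle above. Vehicle 3, at 10.03 the highest vehicle array for Chga, therefore raises the Chga value. The vehicle mean of Chga was 9.56 with it and 9.48 without it, and the other first-set vehicle arrays were at 8.95 and 9.63. The contrast without vehicle 3 is not given here.

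CM-414 minus the combination gave Cartpt 0.85 (SE 0.29, limma adjusted p = 0.163), Chga 0.49 (SE 0.17, adjusted p = 0.181), Chgb -0.34 (SE 0.12, adjusted p = 0.167) and Scg2 0.35 (SE 0.16, adjusted p = 0.285). These were 4 of 10 members with an unadjusted p under 0.05, where 15.9% of genes had one, and no member was among the 0.0234% of genes past the adjusted threshold. Without CM-414 3, CM-414 4 and vehicle 3 the values were 0.08, 0.14, -0.10 and -0.04 in the same order of genes. Without CM-414 2, Cartpt (1.10, limma adjusted p = 0.0401) and Chga (0.69, adjusted p = 0.0274) passed, as did 4.01% of all genes, and CM-414 3 and CM-414 4 were then 2 of the 3 CM-414 arrays. The labels and methods read here state no dose of CM-414, so this is a comparison of arms and not of matched doses.

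Over the 5 groups together, Chga had the highest F statistic of the members (5.38, limma adjusted p = 0.139), followed by Cartpt (2.97, adjusted p = 0.334). They were the 2 members among the 13.7% of genes with an unadjusted p under 0.05, and no member was among the 0.152% past the adjusted threshold. Ordered by mean, Chga was highest with CM-414 (9.97 ± 0.51), then vehicle (9.56 ± 0.34), the combination (9.48 ± 0.17), tadalafil (9.24 ± 0.13) and vorinostat (9.07 ± 0.16). Each neighbouring pair in this order overlapped array by array. Without CM-414 2 the F statistic of Chga was 8.78 and passed (limma adjusted p = 0.0254), as did 2.16% of all genes, and without CM-414 3, CM-414 4 and vehicle 3 it was 3.50 for Chga and 0.45 for Cartpt. With the array set as a block the F statistic of Chga was 2.22 (limma adjusted p = 0.684).

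The array sets themselves could be compared over the 14 combination and vehicle arrays. Penk was lower in the second set by 0.48 (SE 0.15, 95% interval for the difference -0.80 to -0.17, limma adjusted p = 0.092). Its vehicle mean was 8.84 ± 0.20 in the second set (n = 4) and 9.55 ± 0.26 in the first (n = 3), and its combination mean was 8.93 ± 0.41 in the second set and 9.19 ± 0.27 in the first. Vgf was lower in the second set by 0.19 (SE 0.08, limma adjusted p = 0.198). Both were among the 18.2% of genes with an unadjusted p under 0.05, and neither among the 2.78% past the adjusted threshold. Without combination 4, Penk passed (-0.57, limma adjusted p = 0.0437), as did 1.44% of all genes. Without vehicle 3 the difference was -0.42 for Penk, -0.22 for Vgf and 0.28 for Chga. All tadalafil and vorinostat arrays belong to the first set and all CM-414 arrays to the second, so the sets move with these groups.

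**Figure D4:**
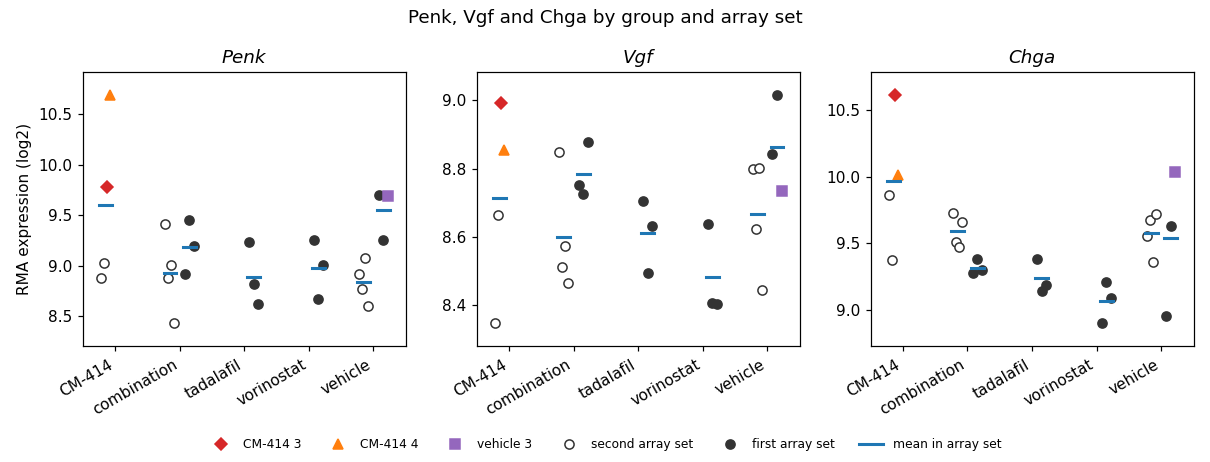
RMA expression (log2) of Penk, Vgf and Chga by group and array set, with open symbols for the second and filled symbols for the first set, coloured symbols for the 3 arrays that stand apart and blue lines for the mean of each set. Penk in vehicle averages 8.84 in the second set and 9.55 in the first, and the axes do not start at 0.

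Over 22 arrays without vehicle 3 and CM-414 3, on values minus the group mean, 45 pairs were correlated, with p-values from 100000 permutations of arrays within groups. None passed a Benjamini-Hochberg adjusted p of 0.05 for Pearson's r. The closest was Penk with Vgf (r = 0.74, permutation p = 0.00137, adjusted p = 0.0616; Spearman's rho = 0.79, permutation p = 0.00019, adjusted p = 0.00855), and without CM-414 4 and vehicle 1, the 2 arrays farthest in Penk, r was 0.74. Within the first array set r was 0.23 and within the second 0.80 (11 arrays each). Tac1 with Pcsk1 followed in strength (r = 0.71, permutation p = 0.00522, adjusted p = 0.0783; rho = 0.58, permutation p = 0.0211, adjusted p = 0.316), with r of 0.57 without CM-414 4 and CM-414 1, 0.78 in the first set and 0.77 in the second. Scg2 and Chga, both high in the arrays that stand apart, had r = 0.77 over all 24 arrays and 0.48 over the 22.

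Among all genes tested, the pattern most like that of Tac1 over 24 arrays, on values minus group means, was that of the glycine receptor subunit Glra3 (r = 0.96), then the acid-sensing channel Asic1 (0.94) and Lhfpl3 (0.93). Over the 22 arrays without vehicle 3 and CM-414 3 these were replaced by Myo16 (0.93), Plxnc1 (0.92) and Arhgap6 (0.92). Cartpt was followed by Gabre (0.96), a GABA-A receptor subunit, Th (0.93), the tyrosine hydroxylase of dopamine cells, and Acly (0.93), and over 22 arrays by Ptpn14 (0.86), Cdh4 (0.85) and Camk1g (0.82). For Chga they were Cstb (0.88), Tox2 (0.87) and Gnal (0.86), and over 22 arrays Emsy (0.87), Elavl3 (0.85) and Bap1 (0.83). Of these 4 genes, only Penk had the same nearest gene both ways, Ptpro, at 0.82 over 24 and 0.83 over 22 arrays. CM-414 4, which held the highest Penk value (10.70), was kept in the 22 arrays. These correlations describe these arrays, which share their tissue dissection and normalization, and were not tested.

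The genes that act on the members' products were read from 3 lists. Of 13 genes of peptide processing and granules 12 were measured and tested, and none passed the adjusted threshold in any of the comparisons. In CM-414 against vehicle, Cpe, the carboxypeptidase that trims cut peptides, differed by -0.18 (SE 0.07, limma adjusted p = 0.27), Cadps, which primes granules for release, by -0.19 (SE 0.07, adjusted p = 0.27) and Resp18, a granule protein, by 0.53 (SE 0.31, adjusted p = 0.49). Without the 3 arrays the differences were -0.13 for Cpe and -0.10 for Cadps. Resp18 was at 10.12 in CM-414 3, 8.91 in CM-414 4 and 9.61 in vehicle 3, against 7.74 to 8.46 in the other 21 arrays, and its difference without them was 0.03. In the combination against vehicle the 3 lowest p belonged to Cadps2 (0.26, SE 0.15), Ptprn2 (0.08, SE 0.07) and Ptprn (0.09, SE 0.08). Vehicle 3 was below the 21 arrays for each of them, and without it the differences were 0.08, 0.04 and 0.02 in the same order. With vorinostat the lowest p was that of Pcsk1n, which encodes the inhibitor proSAAS of the Pcsk1 convertase, at -0.22 (SE 0.11, limma adjusted p = 0.60), and with tadalafil that of Cpe, at 0.13 (SE 0.08, adjusted p = 0.94). Over the 12 genes the median difference from vehicle was 0.02 with CM-414, 0.01 with the combination, 0.04 with tadalafil and 0.01 with vorinostat, beside medians over all genes of -0.01, 0.00, 0.00 and -0.01.

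Of 25 other neuropeptide precursors 23 were measured and 22 tested, again with none past the adjusted threshold. With CM-414, Avp, the vasopressin precursor, differed from vehicle by 1.71 (SE 0.40, limma adjusted p = 0.12), Trh, the thyrotropin-releasing hormone precursor, by 1.55 (SE 0.38, adjusted p = 0.13) and Gal, the galanin precursor, by 0.58 (SE 0.17, adjusted p = 0.18). Without CM-414 3, CM-414 4 and vehicle 3 these differences were 0.31 for Avp, 0.34 for Trh and 0.33 for Gal. Avp was at 7.21, 6.85, 10.61 and 8.99 in the CM-414 arrays and at 6.40 to 6.98 in the combination, tadalafil, vorinostat and vehicle arrays together. Trh was at 6.13, 6.70, 8.99 and 8.56 in the CM-414 arrays, and 7.64 in combination 3. Among the other treatments the lowest p belonged to Grp for the combination (0.28, SE 0.19, and 0.15 without vehicle 3), Calcb, a calcitonin gene-related peptide, for tadalafil (0.29, SE 0.12, limma adjusted p = 0.92) and Nts, the neurotensin precursor, for vorinostat (-0.31, SE 0.18, adjusted p = 0.67). The melanin-concentrating hormone precursor Pmch, which failed the floor, was at 8.92 in CM-414 3 and between 3.66 and 4.90 in the 23 others. In the same array Cck, a peptide of cortical and hippocampal neurons, was at 10.07 and in vehicle 3 at 10.04, against 11.06 to 11.42 in the 21 others, and Npy, Vip and Grp were below those 21 in both arrays.

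All 10 receptors and binding proteins of the members' peptides were tested, with none past the adjusted threshold. Oprm1, the mu opioid receptor, differed by 0.35 with CM-414 against vehicle (SE 0.17, limma adjusted p = 0.38), and Oprd1, the delta receptor for enkephalins, by -0.29 (SE 0.15, adjusted p = 0.41). For Crhr2, a receptor of the corticotropin-releasing hormone family, the difference from vehicle was 0.18 with the combination (SE 0.10) and 0.24 with vorinostat (SE 0.13). Without the 3 arrays the differences with CM-414 were 0.01 for Oprm1 and -0.11 for Oprd1. Of the receptors, Oprm1, Oprk1, Tacr1 and Tacr3 were above the 21 others in all 3, and Oprd1 below. How many of all genes were outside in all 3 was not counted. Tacr1, the substance P receptor, was at 7.40 in CM-414 3, 6.82 in CM-414 4 and 7.35 in vehicle 3, against 5.66 to 6.20 elsewhere. Crhbp, which binds corticotropin-releasing hormone, was at 7.02 in CM-414 3 and 7.09 in vehicle 3, against 7.87 to 8.52 in the 21 others, and at 8.43 in CM-414 4.

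**Figure D5:**
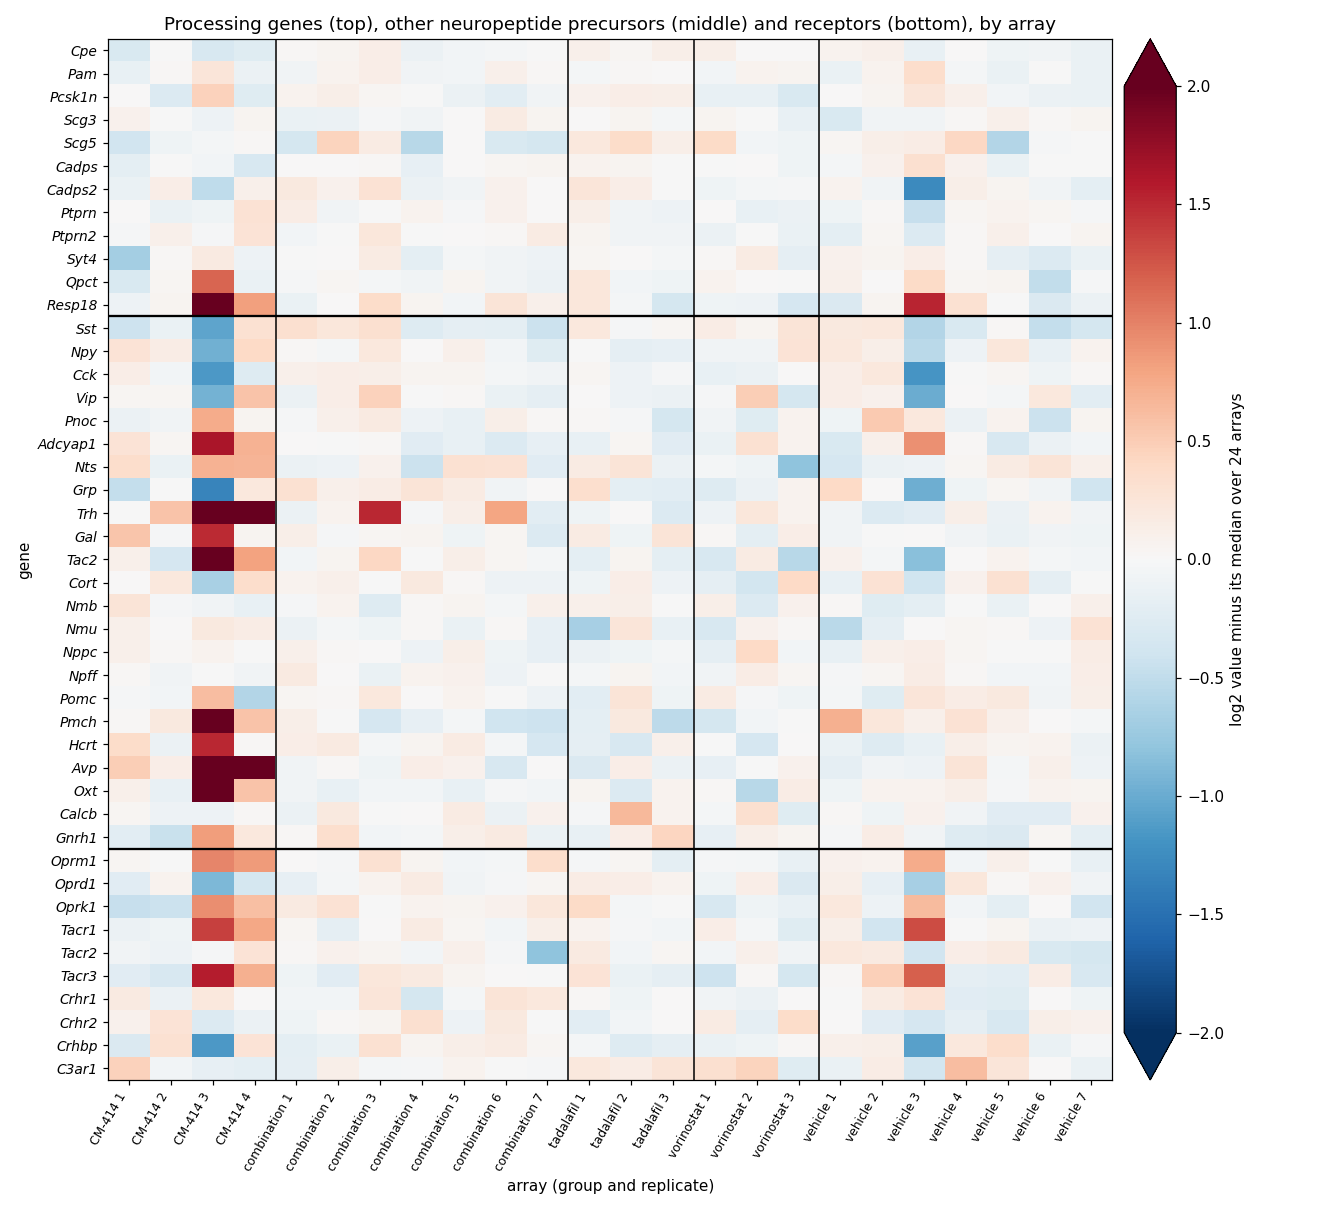
Log2 value minus its median over the 24 arrays for 12 processing genes, 23 other neuropeptide precursors and 10 receptors or binding proteins, with arrays in columns by group and colours limited to a difference of 2 in either direction. Avp and Trh are highest in CM-414 3 and CM-414 4, and Tacr1 and Resp18 in those arrays and vehicle 3.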

How the data were processed

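The authors hybridised hippocampal RNA to Affymetrix Mouse Gene 2.0 ST arrays and deposited log2 values made with RMA, which corrects background and normalizes between arrays, in 1 column per array. Of 41345 probe sets, 23521 named 1 gene, 1820 named several and 16004 named none. For each gene the probe set with the highest mean was kept, and coding genes above log2 4 in at least 2 arrays of each group were tested. One limma model over all 24 arrays and 5 groups (limma 3.58.1, R 4.3.3) gave each difference, with Benjamini-Hochberg adjustment over 17105 genes. Members and gene lists were chosen with earlier results of these data known. All 10 members are named, with the 3 lowest p of each pathway list as the rule for other genes, and genes named for the arrays that stand apart were chosen after their values were seen. Alternatives were the array set as a block or alone, a replicate block, no floor, non-coding genes, the mean of probe sets, median centring, array weights, a trended and robust prior, only the groups compared and each array left out. Leaving out CM-414 3, CM-414 4 and vehicle 3 was added after seeing the data. The model was tested on simulated data. The number of arrays limits the precision.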

Additional observations from a re-analysis of the deposited data

Results flagged for a closer look

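Dixon's test of the gap over the range asked whether a single array lay far from the rest of its group. It flagged 5 of 30 combinations of a gene and a group of at least 4 arrays. Chance alone gives about 1 in 20, but genes on the same array are not independent. The count therefore cannot be set against chance. Of the 5 flags, 4 concern vehicle 3, in which thalamus markers were high and CA1 markers low. Tac1 was at 8.1977 there, with the nearest vehicle array at 6.48. Cartpt was at 7.2026, with the nearest at 6.71. Scg2 was at 10.4511, with the nearest at 9.76, and Chgb was at 10.8369, with the nearest at 11.35. The remaining one was Tac1 in combination 3, at 6.4701, with the nearest combination array at 6.06. Among the 21 arrays other than CM-414 3, CM-414 4 and vehicle 3, combination 3 had the lowest dentate granule cell mean (7.04). Its mean of the CA3 markers (7.29) was also the lowest of the 21. The part of the tissue markers in these values was not tested.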

How the results depend on the processing

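The count of members past the adjusted threshold stayed at 0 in 124 pairs of a comparison and another setting. The exception was 1 member, Chga, for the combination against its added single-drug effects with array weights. With 1 array left out, the count ran from 0 to 2 for CM-414 minus the combination, 0 to 1 over the 5 groups and 0 to 1 between array sets, and stayed at 0 in the other comparisons. The Scg2 difference of CM-414 minus the combination turned to -0.038 without vehicle 3, CM-414 3 and CM-414 4, and to -0.084 in the second array set without CM-414 3 and CM-414 4. Counts over all genes moved more. With the replicate block they were 275 for CM-414 minus vehicle, 268 for CM-414 minus the combination and 52 over the 5 groups, against 1, 4 and 26. Array weights gave 250 for the combination against those added effects and 17 for vorinostat minus vehicle, against 3 and 1. The trended and robust prior gave 37 for CM-414 minus the combination and 728 between sets, against 4 and 476. Leaving out 1 array gave 0 to 686 for CM-414 minus the combination. The cause was not tested. Over 36 pairs of same-numbered arrays, the median correlation of their deviations was -0.0052 (highest 0.73, 12 pairs over 0.1). Over 186 pairs with different numbers it was 0.01 (highest 0.27, 37 pairs over 0.1). CM-414 1 to 3 are in the second array set, and vehicle 1 to 3 and combination 1 to 3 are in the first. At those numbers CM-414 shares no set with vehicle or the combination. CM-414 3 and vehicle 3, both with high thalamus markers, also share a number. Whether the replicate numbers pair some of the arrays was not tested. The replicate block called no member.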
